A study of Mus musculus with 7 samples.

Results

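The transcripts described here are 10 genes of macrophages and related myeloid cells, selected by symbol: Lyz2, Csf1r, Adgre1, Cd68, C1qa, C1qb, C1qc, Tyrobp, Ctss and Siglec1. All 10 were present among the 21176 genes of the deposited table. The cells sequenced were follicular dendritic cells (FDCs), the stromal cells that display antigen to B cells in lymphoid follicles, isolated from popliteal lymph nodes by flow cytometric sorting. Both groups were male, 8 to 12 weeks old and not immunized. They were WT mice (n = 4 libraries) and Ngfr KO mice (n = 3 libraries), a knockout of Ngfr, which encodes the p75 neurotrophin receptor. Every library came from nodes pooled over several animals, so p-values here measure the spread between pools, and neither the strain nor the Ngfr allele is given in the sources used here.

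Macrophages arise and survive under colony-stimulating factor 1, which signals through the receptor encoded by Csf1r. In lymph nodes they line the sinuses, where Siglec1 (CD169) marks those that catch lymph-borne particles, and they sit inside follicles, where they engulf dying B cells and make the complement protein C1q. Lyz2 encodes lysozyme M, Cd68 a lysosomal glycoprotein, Adgre1 the F4/80 antigen, Tyrobp the signalling adaptor DAP12 and Ctss the protease cathepsin S, which trims the invariant chain of MHC class II. Lyz2, Tyrobp and Ctss are shared with other leukocytes, Ctss with B cells among them, whereas C1q and F4/80 are closer to macrophages alone. FDCs are not of this lineage.

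Recovered reads per library ranged from 17244925 to 21538400, and the 3 Ngfr KO libraries were the deepest. All 15 listed FDC markers were in the table, and their values summed to 1834 to 5146 per WT library and to 7972 to 10498 per Ngfr KO library. Ngfr itself averaged 0.872 ± 0.421 over WT libraries (SD, n = 4) and 0.281 ± 0.087 over Ngfr KO libraries (SD, n = 3), without overlap (log2 change -1.26, limma adjusted p = 0.0394), though only 1 of the 7 fits without 1 library called it. Across all genes, limma called 3244 of 14592 tested genes at an adjusted p under 0.05. The values of 14 endothelial markers summed to 126 to 172 per WT library and 28.8 to 51.8 per Ngfr KO library, and 12 of the 14 were called lower. In bulk libraries, fewer cells of a type and less RNA per cell cannot be told apart. A pair of libraries stood apart in the myeloid genes, and results that rest on them are given without them as well. WT replicate 3 was the one library with no Tyrobp read and had the lowest Lyz2 value, and Ngfr KO replicate 3 had the highest value of 4 of the 10 transcripts. Transcripts at 0 reads numbered 4 in WT replicate 3 and in Ngfr KO replicate 2, 2 in WT replicate 4 and in Ngfr KO replicate 1, 1 in Ngfr KO replicate 3 and 0 in WT replicates 1 and 2.

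The sorted FDC libraries held a very uneven set of macrophage transcripts. Cathepsin S was abundant and level, lysozyme M and DAP12 were moderate and erratic, and C1qa, C1qb, C1qc and Adgre1 had at most 41 reads in any library. Macrophage genes were not all so low. Of 17 further ones described below, 5 had at most 50 reads in every library, while Aif1 had 2042 to 7443 and Timd4 552 to 2085. Together the 10 genes took 0.0249% to 0.0585% of all reads. Ctss alone supplied 62.4%, 76.5%, 86.3% and 72.5% of them in WT replicates 1 to 4. In Ngfr KO replicates 1 to 3 it supplied 60.1%, 76.4% and 28.8%, and in the last of these Lyz2 gave 57.0%.

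Levels can be compared between genes only per length, so reads were divided by annotated exon length and by library size (RPKM). Averaged over libraries, Ctss stood at the 98.2nd percentile of genes on this scale, with 175 in WT and 158 in Ngfr KO. Lyz2 followed at the 96.2nd percentile (31.3 and 127) and Tyrobp at the 93.2nd (33.2 and 40.8). Cd68 had 2.36 and 6.49, Csf1r 1.86 and 1.29, C1qb 1.51 and 0.0148, and Siglec1 1.01 and 0.533. At the bottom were C1qa, C1qc and Adgre1, at the 15.5th percentile or below. In this order the ranges of all neighbouring genes over the 7 libraries overlapped.

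**Figure D1:**
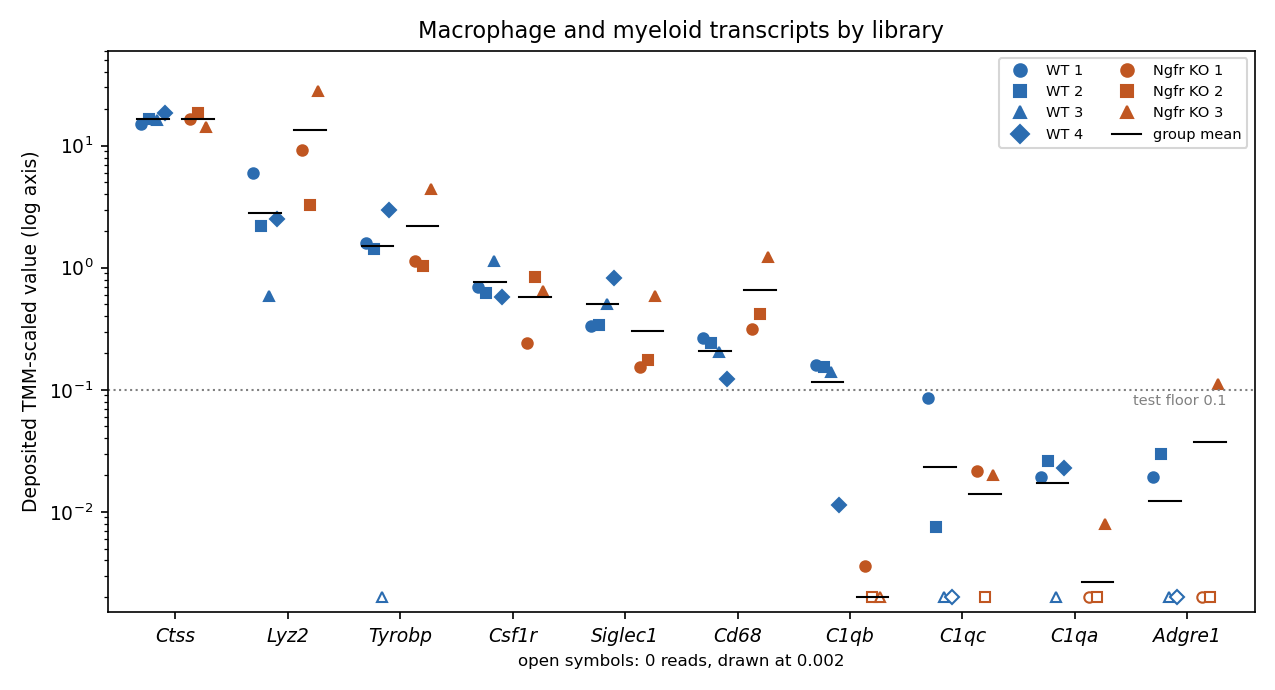
Deposited TMM-scaled value of each of the 10 genes (log axis) in every library, WT in blue and Ngfr KO in orange, with black bars for group means. Ctss sits between 14.2 and 18.6 in all 7 libraries, while C1qa, C1qb, C1qc and Adgre1 lie near or below the floor of 0.1 used for testing.

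A gene entered the test where its value reached 0.1, worth 23.0 to 29.5 reads, in at least 3 libraries. Of the 10 genes, 7 passed this floor, and C1qa, C1qc and Adgre1 did not. C1qb passed only through its WT libraries. Limma called 1 of the 7, Lyz2, higher in Ngfr KO; 22.2% of all tested genes were called, so this share is near the background. The median log2 change of the 7 was -0.01, against -0.04 for all tested genes. Log2 changes here are Ngfr KO minus WT on the log2(value + 0.1) scale.

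**Figure D2:**
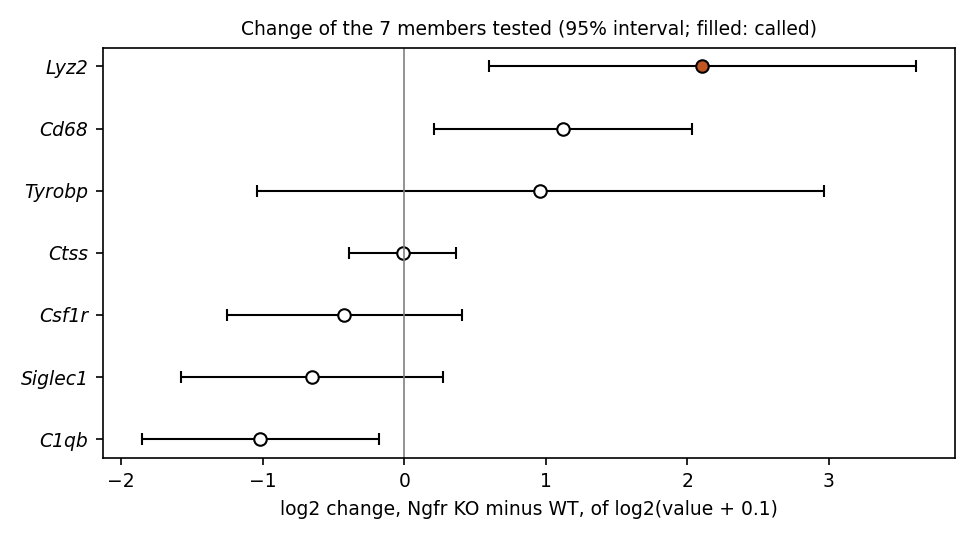
Log2 change of the 7 tested genes, Ngfr KO minus WT on the log2(value + 0.1) scale, with 95% intervals from limma. The filled point, Lyz2 at 2.11, is the one called, and the intervals of Tyrobp, Ctss, Csf1r and Siglec1 include 0.

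Lyz2 (ENSMUSG00000069516; chromosome 10, 117277331 to 117282321, minus strand, GRCm38) encodes the lysozyme of macrophages and neutrophils. Its value was 5.96, 2.20, 0.582 and 2.50 in WT replicates 1 to 4 and 9.19, 3.29 and 28.1 in Ngfr KO replicates 1 to 3. The groups overlapped, since WT replicate 1 was above Ngfr KO replicate 2. Lyz2 rose by 2.11 on the log2 scale (SE 0.70, limma adjusted p = 0.0467), while permuting the libraries exactly, two-sided, gave p = 0.0571. WT libraries averaged 2.81 ± 2.26 (SD, n = 4) and Ngfr KO libraries 13.5 ± 12.9 (SD, n = 3), with an SD close to the mean in both genotypes. Without Ngfr KO replicate 3 the log2 change was 1.33 (limma adjusted p = 0.189), and without WT replicate 3 it was 1.54 (limma adjusted p = 0.101). Without both it was 0.76 (limma adjusted p = 0.276). These are the lowest WT and the highest Ngfr KO library for Lyz2, picked after the values were seen. Leaving them out could only lower the change, so these fits describe how much it rests on them. Leaving out WT replicate 2, WT replicate 4 or Ngfr KO replicate 1 also ended the call, with limma adjusted p-values of 0.0794, 0.0726 and 0.0983. Of 22 alternatives 11 called it, and edgeR (adjusted p = 0.0576) and DESeq2 (adjusted p = 0.0567) did not.

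Lyz2 has a near-identical neighbour, Lyz1, the lysozyme of Paneth cells in the intestine, on the same strand from 117287797 to 117292868. The coding sequences, each of 447 bases, differ at 22 positions (95.1% identity, GENCODE M21) and share a run of 118 bases without a difference. Their first 150 coding bases are shown because 14 of the 22 differences lie there. Lyz2 has 1316 exon bases in all, and the parts outside the coding sequence were not compared. Capitals mark these positions, 5′ to 3′.
Lyz2: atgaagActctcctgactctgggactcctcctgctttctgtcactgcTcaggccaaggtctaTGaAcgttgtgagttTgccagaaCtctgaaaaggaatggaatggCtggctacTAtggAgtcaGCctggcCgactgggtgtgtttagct
Lyz1: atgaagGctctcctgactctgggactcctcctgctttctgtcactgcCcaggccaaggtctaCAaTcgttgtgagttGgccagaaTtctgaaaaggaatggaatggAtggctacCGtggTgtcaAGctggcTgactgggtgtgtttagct
Lyz1, examined after its values were seen, had 4, 2, 0 and 0 reads in WT replicates 1 to 4 and 61, 104 and 58 in Ngfr KO replicates 1 to 3. It passed the floor only through the Ngfr KO libraries, so these reads are given as a description, with no test. Lyz1 reads were 0.821% of the Lyz1 and Lyz2 reads in Ngfr KO replicate 3, which had most Lyz2, and 9.69% in Ngfr KO replicate 2, which had least in that genotype. In WT the share was 0% to 0.338%. Lyz1 reads therefore did not follow Lyz2 reads at a fixed ratio, and how the authors' counting treated reads that fit both genes is not given in the sources used here.

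Cd68 (ENSMUSG00000018774; chromosome 11, 69664213 to 69666153, minus strand), the lysosomal macrosialin of phagocytes, was low in every library. Its value was 0.265, 0.240, 0.204 and 0.122 in WT replicates 1 to 4, or 32 to 68 reads, and 0.316, 0.417 and 1.23 in Ngfr KO replicates 1 to 3, or 87 to 306 reads. All Ngfr KO libraries lay above the WT libraries, which in a two-sided exact permutation over 35 splits has the smallest possible p, 0.0286. Such separation upwards was seen in 16.6% of all tested genes. The log2 change of 1.12 (95% interval 0.21 to 2.03) was not called by limma (adjusted p = 0.0723). It was called by DESeq2 on the recovered reads (log2 change 1.70, adjusted p = 0.0152), which called 22.5% of genes (11.8% higher, 10.7% lower), and not by edgeR (log2 change 1.69, adjusted p = 0.0567), which called 15.2% (8.67% higher, 6.55% lower). Without Ngfr KO replicate 3 the log2 change of Cd68 was 0.62 (limma adjusted p = 0.272). As this is the highest library for Cd68, leaving it out could only lower the change.

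Tyrobp (ENSMUSG00000030579; chromosome 7, 30413760 to 30417585, plus strand) encodes an adaptor that carries the signals of several myeloid and natural killer cell receptors. Its value was 1.61, 1.43, 0 and 2.99 in WT replicates 1 to 4 and 1.13, 1.03 and 4.41 in Ngfr KO replicates 1 to 3. WT replicate 3 had no Tyrobp read, where 3 reads would have given 0.0130, while WT replicates 1, 2 and 4 had 382 to 784 reads. The log2 change of 0.96 (95% interval -1.04 to 2.97, limma adjusted p = 0.476) turned to -0.12 without WT replicate 3 (limma adjusted p = 0.876). It was -0.76 without WT replicate 3 and Ngfr KO replicate 3 (limma adjusted p = 0.120). As these are the lowest WT and the highest Ngfr KO library for Tyrobp, leaving them out could only lower the change. Fcer1g, which encodes a related signalling chain, was likewise lowest in WT replicate 3, at 0.104 against 0.930 to 1.37 in the other WT libraries.

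Csf1r (ENSMUSG00000024621; chromosome 18, 61100598 to 61132149, plus strand), the receptor on which macrophages depend, had 67 to 262 reads per library. Its value was 0.693, 0.621, 1.14 and 0.580 in WT replicates 1 to 4 and 0.243, 0.838 and 0.645 in Ngfr KO replicates 1 to 3. The groups overlapped, with Ngfr KO replicate 1 the lowest, and the log2 change was -0.42 (95% interval -1.25 to 0.41, limma adjusted p = 0.448). Exons of Csf1r and of Hmgxb3, a gene on the opposite strand, share 873 bases in GENCODE M21, and without strand in the counting reads from these bases cannot be told apart.

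Siglec1 (ENSMUSG00000027322; chromosome 2, 131069220 to 131086765, minus strand) encodes the sialic acid receptor of sinus macrophages. Its value was 0.335, 0.337, 0.509 and 0.824 in WT replicates 1 to 4 and 0.152, 0.176 and 0.589 in Ngfr KO replicates 1 to 3. Ngfr KO replicates 1 and 2 were below all WT libraries and Ngfr KO replicate 3 was above 3 of them. Its log2 change of -0.65 (95% interval -1.58 to 0.27, limma adjusted p = 0.287) was not called, nor under any of 20 alternatives. Without Ngfr KO replicate 3 it was -1.11 (limma adjusted p = 0.0797), and without Ngfr KO replicate 1 it was -0.39 (limma adjusted p = 0.610).

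Ctss (ENSMUSG00000038642; chromosome 3, 95526786 to 95556403, plus strand) varied least. Its value was 15.2, 16.5, 16.1 and 18.6 in WT replicates 1 to 4 and 16.7, 18.6 and 14.2 in Ngfr KO replicates 1 to 3. The means were 16.6 ± 1.4 (SD, n = 4) and 16.5 ± 2.2 (SD, n = 3). The log2 change was -0.01 with a 95% interval of -0.39 to 0.37 (limma adjusted p = 0.972), and over the alternatives it lay between -0.13 and 0.09 with either sign. Ngfr KO replicate 3, the highest library for Lyz2, Tyrobp, Cd68 and Adgre1, was the lowest for Ctss.

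The C1q chains are encoded side by side on the minus strand of chromosome 4, C1qb from 136880129 to 136886187, C1qc from 136889804 to 136893065 and C1qa from 136895917 to 136898803. One chain of each kind builds the C1q subunit. C1qb had 41, 41, 32 and 3 reads in WT replicates 1 to 4 and 1, 0 and 0 in Ngfr KO replicates 1 to 3. C1qa had 5, 7, 0 and 6 reads in WT and 0, 0 and 2 in Ngfr KO, and C1qc had 22, 2, 0 and 0 in WT and 6, 0 and 5 in Ngfr KO. The chains did not keep a common ratio across libraries: WT replicate 3 had C1qb reads and none of the other chains, and Ngfr KO replicate 1 had 6 C1qc reads beside 1 of C1qb.

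For C1qb every Ngfr KO library lay below every WT library, as did 16.6% of all tested genes, and WT replicate 4, at 3 reads, was far below the other WT libraries. The log2 change of -1.02 (95% interval -1.85 to -0.18) was not called by limma (adjusted p = 0.0764). The p fell below the threshold without WT replicate 4 (log2 change -1.31, limma adjusted p = 0.0194) and in both count models (edgeR adjusted p = 0.0274, DESeq2 adjusted p = 0.00123). Because C1qb was testable only through the group in which it is higher, these values are no support for a fall. Scaled reads in WT were 94.4 times those in Ngfr KO, with an exact 95% interval of 16.6 to 3761 that covers counting error only. The same ratio was 7.26 for C1qa (1.74 to 64.5) and 1.76 for C1qc (0.83 to 3.98), and for Adgre1 it ran the other way, at 0.375 (0.178 to 0.748). Adgre1 (ENSMUSG00000004730; chromosome 17, 57358691 to 57483527, plus strand) had 5, 8, 0 and 0 reads in WT replicates 1 to 4 and 0, 0 and 28 in Ngfr KO replicates 1 to 3, so its Ngfr KO reads came from 1 library and the groups overlapped (exact two-sided permutation, p = 0.714).

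By a fixed rule, the genes outside the list with a mean value of at least 1 whose profile over the 7 libraries lay nearest to the mean C1q profile were Tspan7, Scyl2, Lgmn, Prex1 and Tmem106b. Their root mean square differences from that profile were 0.0649 to 0.0925 on the log2(value + 0.1) scale. Limma called none of the 5 (adjusted p = 0.150 to 0.251), and this likeness rests on at most 41 reads of a C1q chain per library. The C1q values, at most 0.160, are also near or below the added 0.1, which narrows their differences on this scale. The nearness therefore depends on that setting.

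C1q circulates bound to the proteases C1r and C1s, and the C1 inhibitor, encoded by Serping1, shuts them off. Here C1ra, C1s1 and Serping1 were far above the C1q genes and higher in Ngfr KO, whereas the further protease genes C1rb and C1s2 were as low as the C1q genes. Serping1 had 6.02, 7.43, 11.05 and 14.8 in WT replicates 1 to 4 and 53.5, 49.0 and 41.4 in Ngfr KO replicates 1 to 3, a rise of 2.35 on the log2 scale (SE 0.27, limma adjusted p = 0.000666). C1s1 averaged 11.2 ± 4.35 over WT (SD, n = 4) and 28.4 ± 1.24 over Ngfr KO libraries (SD, n = 3) and rose by 1.42 on the log2 scale (SE 0.26; limma, adjusted p = 0.00348). C1ra passed as well (log2 change 0.66; limma, adjusted p = 0.0427), with overlapping groups, and 6 of the 7 fits that left out 1 library did not call it. Per length, C1s1 had 51.1 RPKM in WT and 117 in Ngfr KO, against 0.240 and 0.0305 for C1qa. C1s2 had 0.486 and 0.681 RPKM and was not called (limma adjusted p = 0.492), and C1rb had 0.148 and 0.126 and was not tested. Of the 10 tested genes of the C1 complex and its receptors, 4 were called higher and 2 lower, against 11.0% and 11.3% of all tested genes. The other gene called higher was Calr, calreticulin (log2 change 0.86, not called in 4 of the 7 fits without 1 library), and the 2 lower were Cd93 and Scarf1 (log2 changes -2.35 and -1.05), which are also endothelial genes.

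The ligand of the CSF1 receptor was more abundant than the receptor, with 56.0 and 22.1 RPKM for Csf1 in WT and Ngfr KO against 1.86 and 1.29 for Csf1r. By deposited value, Csf1 had 30.3, 20.2, 17.8 and 14.2 in WT replicates 1 to 4 and 7.25, 8.14 and 11.9 in Ngfr KO replicates 1 to 3, without overlap. It fell by 1.15 on the log2 scale (SE 0.26, limma adjusted p = 0.00922) and was called under all 22 alternatives. Endothelial cells make Csf1 too, and the endothelial marker sum given above was lower in the same libraries; its part in the Csf1 difference was not tested. Il34, the other ligand, was not called, with 0.0304 to 0.229 over WT and 0.0881 to 0.305 over Ngfr KO libraries. Spi1, which encodes the myeloid and B-cell transcription factor PU.1, averaged 0.205 ± 0.080 over WT (SD, n = 4) and 0.556 ± 0.179 over Ngfr KO libraries (SD, n = 3), and rose by 1.11 on the log2 scale (limma adjusted p = 0.0403). None of the 7 fits without 1 library called Spi1. In all, 1 of the 9 genes of this axis was called higher and 1 lower, near the 11.0% and 11.3% of all tested genes.

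**Figure D3:**
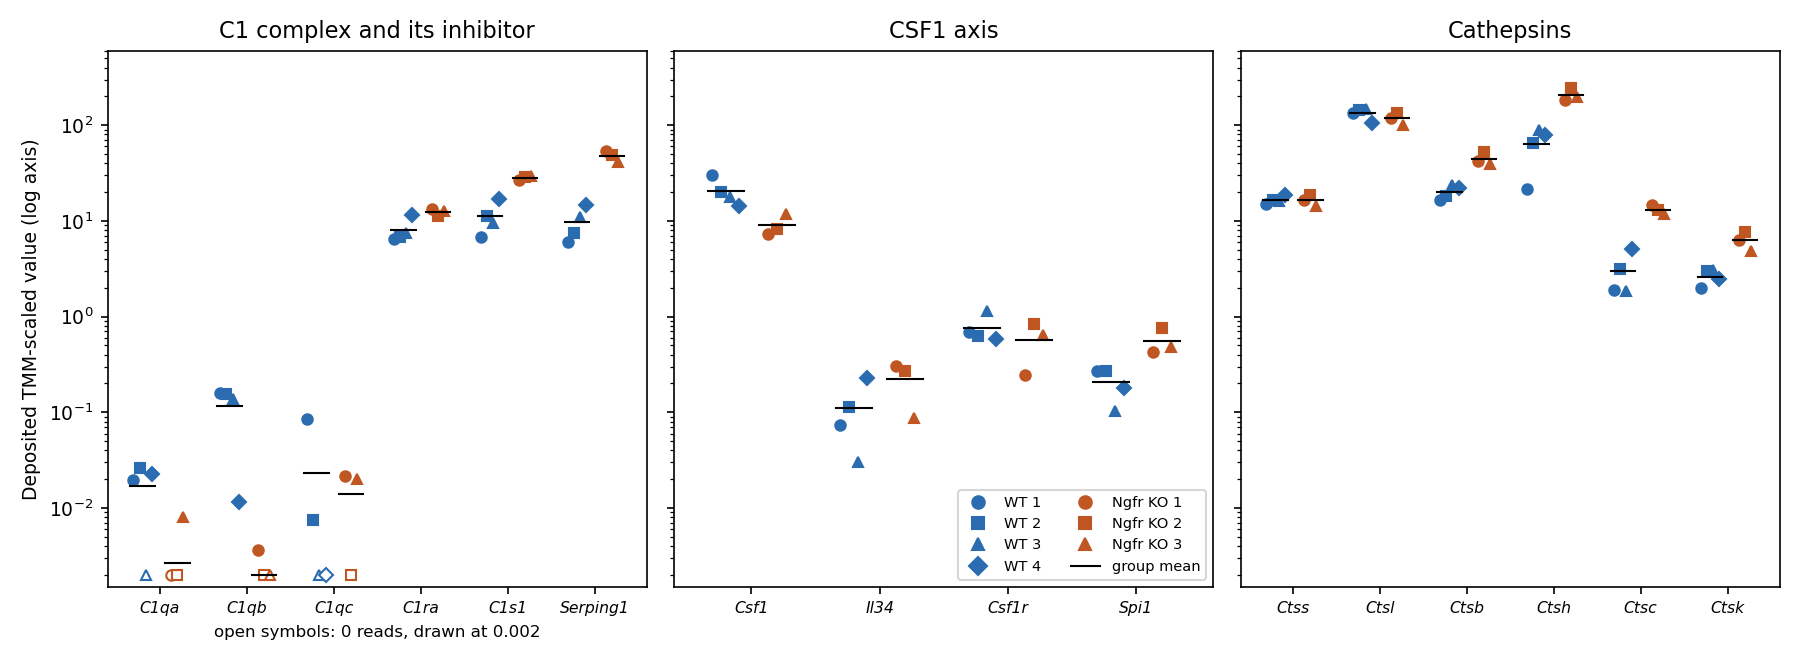
Deposited TMM-scaled values (log axis) by library for genes of the C1 complex and its inhibitor, the CSF1 axis and the cathepsins, WT in blue and Ngfr KO in orange with black group means. C1ra, C1s1 and Serping1 lie between 6.02 and 53.5, far above the C1q chains, and the groups overlap for Ctss and Ctsl, where Ctsb, Ctsh, Ctsc and Ctsk are higher in all Ngfr KO libraries.

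Tyrobp passes on signals of receptors such as TREM2, a lipid and apoptotic-cell receptor of macrophages and osteoclasts. Trem2 had 0.0700, 0.146, 0.278 and 0.126 in WT replicates 1 to 4 and 1.498, 1.45 and 2.13 in Ngfr KO replicates 1 to 3. It rose by 2.85 on the log2 scale (SE 0.35, limma adjusted p = 0.000682) and was called under all 22 alternatives, whereas its adaptor Tyrobp was called under none. The difference between these changes was not tested. All 3 Ngfr KO libraries were above all WT libraries for Trem2, whereas for Tyrobp only Ngfr KO replicate 3 was. Hcst, the neighbouring adaptor DAP10, was called lower (log2 change -1.26, limma adjusted p = 0.0342), but edgeR (adjusted p = 0.0751) and 4 of the 7 fits without 1 library did not call it. Of the 13 partner genes 6 were tested, 1 called higher and 1 lower, against 11.0% and 11.3% of all tested genes.

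Ctss was set beside other genes of lysosomal proteases and the lysosome. Of 19 tested, 6 were called higher, all cathepsins, 1, Psap, was called lower, and 12 were not called. Among all tested genes 11.0% were called higher and 11.3% lower. The summed values of the FDC markers, given above, and of the reticular stroma markers (93.7 to 230.3 per WT library, 261.2 to 367.9 per Ngfr KO library) were higher in the same libraries, and their part in these differences was not tested. Ctsc had 1.88, 3.11, 1.86 and 5.05 in WT replicates 1 to 4 and 14.8, 12.9 and 11.7 in Ngfr KO replicates 1 to 3, a rise of 2.22 on the log2 scale (SE 0.30; limma, adjusted p = 0.000932). Ctsh averaged 63.8 ± 29.9 over WT (SD, n = 4) and 208 ± 33.7 over Ngfr KO libraries (SD, n = 3) and rose by 1.88 on that scale (SE 0.41; limma, adjusted p = 0.00802). Ctsk, Ctsb, Ctsz and Ctsa rose by 1.23, 1.15, 1.07 and 0.98, and all 6 cathepsins were called under all 22 alternatives. Ctsl, at 134 ± 19.5 over WT (SD, n = 4) and 118 ± 15.9 over Ngfr KO libraries (SD, n = 3), was not called (log2 change -0.18, limma adjusted p = 0.611), nor was Ctsf (log2 change 0.06, limma adjusted p = 0.918). The Psap call was lost in 4 of the 7 fits without 1 library.

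Among 17 further macrophage genes examined, 13 were tested, 2 called higher and 2 lower, against 11.0% and 11.3% of all tested genes. Cd14, the co-receptor for bacterial lipopolysaccharide, had 1.10, 1.71, 1.504 and 1.97 in WT replicates 1 to 4 and 5.72, 4.50 and 11.7 in Ngfr KO replicates 1 to 3, a rise of 2.05 on the log2 scale (SE 0.31; limma, adjusted p = 0.00142). The other gene called higher was Trem2. Mertk, a receptor for the uptake of apoptotic cells, had 0.510, 0.644, 0.665 and 0.412 in WT and 0.00725, 0.190 and 0 in Ngfr KO. The log2 change of Mertk was -2.15 (SE 0.41, limma adjusted p = 0.00431), and edgeR did not call it (adjusted p = 0.111). Among Ngfr KO libraries only replicate 2 reached 0.1, so Mertk passed the floor through WT, the group in which it is higher. These values are therefore no support for a fall of Mertk. Itga2b, named after its values were seen, was called lower as well (log2 change -1.21), under all 22 alternatives.

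The most abundant genes of that list were not those of the C1q and F4/80 group. Marco, a scavenger receptor, had 69.0, 81.8, 73.2 and 20.8 in WT replicates 1 to 4 and 23.1, 49.8 and 1.42 in Ngfr KO replicates 1 to 3. Lyve1, a hyaluronan receptor, had 62.5, 59.5, 36.2 and 16.3 in WT and 26.0, 17.2 and 10.3 in Ngfr KO. Limma called neither (adjusted p = 0.0986 and 0.0597), and the groups overlapped in both. Marco, Lyve1, Mrc1 and Itga2b are also genes of lymphatic endothelium in lymph nodes. In these libraries they were highest in WT replicate 1 or 2, and the endothelial marker sum was highest in WT replicate 1 and lowest in Ngfr KO replicate 3. The values did not follow that sum throughout. WT replicates 2 and 4 had endothelial sums of 130.9 and 125.8, with Marco at 81.8 and 20.8 and Lyve1 at 59.5 and 16.3. The part of endothelial cells in the values of these genes was not tested.

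The lists of general myeloid genes and of other leukocytes differed in their calls, against 11.0% of all tested genes called higher and 11.3% lower. Of 12 general myeloid genes tested, 1 was called higher (Spi1) and 1 lower (Lst1, not called in 5 of the 7 fits without 1 library), and the most abundant, Csf2rb and Sirpa, were not called. Of 9 dendritic cell genes 2 were called, Flt3 and Batf3, both higher, and edgeR did not call Flt3 (adjusted p = 0.0823). Among WT libraries only replicate 2 reached 0.1 for Flt3, so it passed the floor through Ngfr KO, where it is higher. The Flt3 call is therefore no support for a rise. Of 6 monocyte genes 1 was called, Nr4a1, lower. Limma called none of 5 neutrophil, 2 mast cell and basophil, 12 B-cell and 12 T-cell genes tested, of which 1, 0, 1 and 0 had an unadjusted p under 0.05. EdgeR called none of them either, and DESeq2 called 1 neutrophil gene lower and 1 B-cell gene higher. Of 6 plasma cell genes 1 was called higher, of 10 pan-leukocyte genes 4 higher (Coro1a, Laptm5, Cd53 and Lcp1), and of 11 reticular stroma genes 3 higher. Against these stood the FDC list, with 13 of 15 genes higher, a direction that earlier results of these data had shown.

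**Figure D4:**
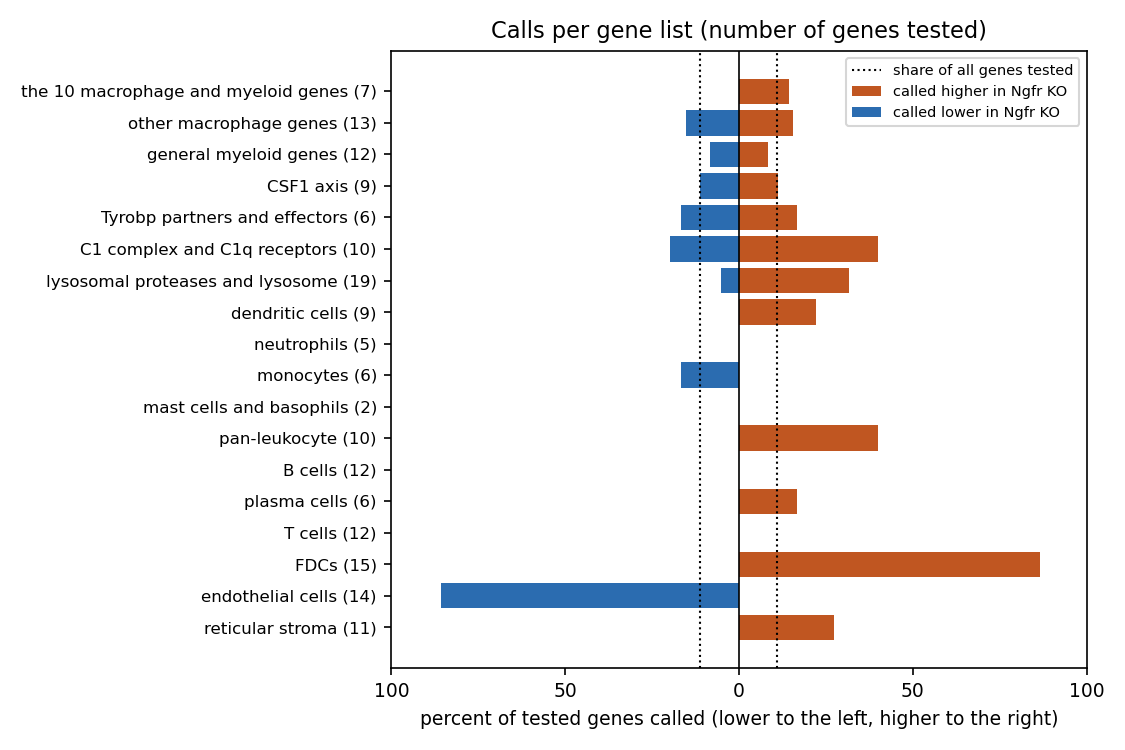
Percent of the tested genes of each list that limma called higher (orange, right) or lower (blue, left) in Ngfr KO, with the number of tested genes in brackets; dotted lines mark the shares of all tested genes, 11.0% higher and 11.3% lower. The 10 macrophage and myeloid genes, with 1 call among 7 tested, lie near those lines, while FDC and endothelial markers lie far beyond them.

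Sorted by library rather than by genotype, the myeloid transcripts showed another pattern. The 10 genes, the further macrophage genes, the general myeloid genes and the monocyte genes made up 52 genes. Ngfr KO replicate 3 had the highest value of 20 of them (38.5%), against 14.5% of all genes in the table. WT replicate 1 was highest for 13 (25.0%, against 19.8% of all genes), and Ngfr KO replicates 1 and 2 for 2 and 5. WT replicate 3 had 14 of the 52 at 0 reads, and in that library 16.1% of all genes were at 0. The genes highest in Ngfr KO replicate 3 included Lyz2, Tyrobp, Cd68, Adgre1 and the monocyte genes Ccr2 and Plac8, the last named after their values were seen. Of the 10 monocyte genes, 5 were highest in Ngfr KO replicate 3. The others were highest in WT replicate 1 (2 genes), Ngfr KO replicate 1 (2 genes) and WT replicate 3 (1 gene). Ccr2 was 1.10 in Ngfr KO replicate 3 and at most 0.453 elsewhere, and Plac8 was 3.96 there and at most 1.58 elsewhere. The pan-leukocyte sum was not raised in that library: it was 50.4, against 41.0 to 71.3 in the other libraries, and the B-cell sum was 26.2, against 21.2 to 44.1. In WT replicate 3 the pan-leukocyte sum was the lowest of the 7, at 41.0. Whether other cells in the sorted pools account for these library differences was not tested.

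**Figure D5:**
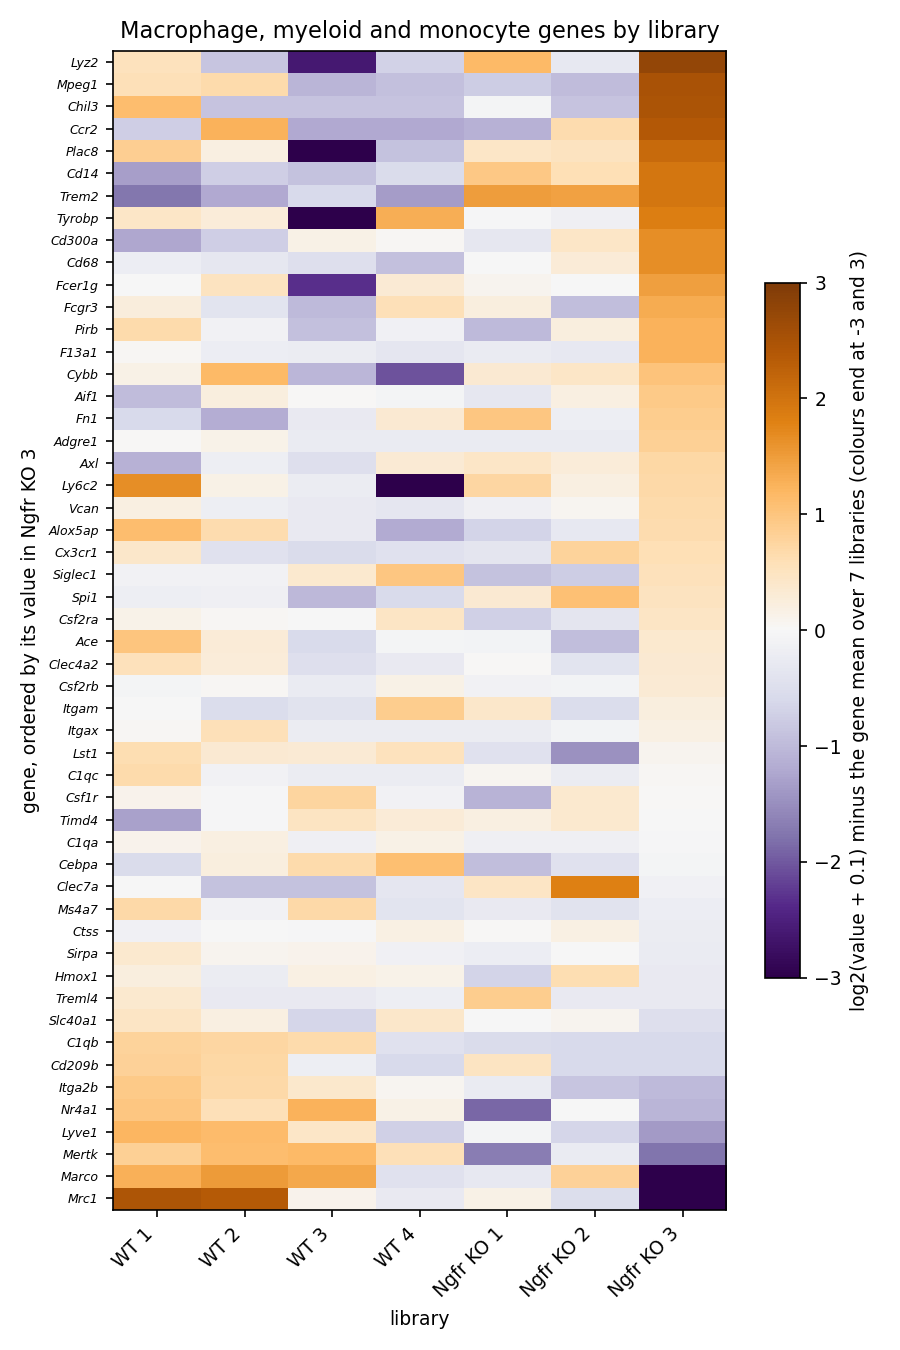
Log2(value + 0.1) of 52 macrophage, myeloid and monocyte genes in each library, as the difference from the gene's mean over 7 libraries (colour), with genes ordered by that difference in Ngfr KO replicate 3. Ngfr KO replicate 3 is highest for 20 of the genes, while Lyz2, Tyrobp, Plac8 and Fcer1g are lowest in WT replicate 3.

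The neutrophil genes S100a8 and S100a9 split the WT libraries. S100a8 was 17.4 and 45.6 in WT replicates 1 and 4, against 0.0225 and 0 in WT replicates 2 and 3 and at most 0.602 in Ngfr KO. Neutrophils also make Lyz2, and their part in its values was not tested. Lyz2 was 5.96, 2.20, 0.582 and 2.50 in WT replicates 1 to 4. The library with most Lyz2, Ngfr KO replicate 3, had 1 read of S100a8. Of the 6 neutrophil genes in the table, however, 1 was highest in that library and 5 in WT replicate 4.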

How the data were processed

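RNA of sorted FDCs was made into cDNA with SMART-Seq v4 and into libraries with Nextera XT, per the labels' protocols. The authors deposited 1 table of TMM-scaled signal values per gene. The submitters' processing notes name bcl2fastq 2.20.0.422 and the mm10 build; the aligner, the counting, its use of strand and the annotation are not given in the sources used here. In each library 100% of the deposited values were whole multiples of 1 step within 0.05 reads, so whole reads were recovered. Of 21176 gene IDs 21118 matched GENCODE M21, whose GRCm38 coordinates and exon lengths are printed, and 0 columns of other samples were present.

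Genes that reached 0.1 in 3 or more libraries were tested with limma 3.58.1 (R 4.3.3, trended eBayes) on log2(value + 0.1), with Benjamini-Hochberg adjustment over 14592 genes and a threshold of 0.05. On simulated data with known changes, edgeR kept false calls near the nominal share, limma went above it and DESeq2 further above it. A call by DESeq2 alone was thus the least secure in that simulation. It gave every gene the same dispersion and changed far fewer genes than were called here. Whether the tools rank in this way for the present genes was not tested. The pseudocount of 0.1 was chosen because many of these transcripts have values below 1. Single values were compared by exact permutation over all 35 assignments of libraries to genotypes, two-sided. The alternatives were other pseudocounts, filters, scalings and variance models, a replicate block, a B-cell covariate, each library left out, and edgeR 4.0.16 and DESeq2 1.42.0 on the recovered reads. Thinned reads and leaving out WT replicate 3 with Ngfr KO replicate 3 were added after seeing the data. Reads carry no molecular identifiers, so intervals and floors cover counting error only.

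The 10 genes and all lists were chosen with earlier results of these data known. In each further list, up to 3 called genes with the largest log2 change and the 2 with the highest mean value were named, with the 5 genes nearest to the C1q profile. C1ra, Mrc1, Itga2b, Aif1, Timd4, Ctsb, Ctsa, Ctsz, Psap, Plac8, Ccr2, Calr, Scarf1, C1rb, C1s2, Ctsf, Coro1a, Laptm5, Cd53 and Lcp1 were named beside these, after their values were seen. List genes that could not be matched by symbol were not analysed here, and 1 further macrophage gene is not reported here.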

Additional observations from a re-analysis of the deposited data

Results flagged for a closer look

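In groups of 4, a library was marked where its gap to the nearest other library exceeded Dixon's 95% critical share of the group's range. Of 28 values and list sums checked 5 were marked, and chance marks about 1 in 20 groups. C1qb in WT had a gap of 0.862 of the range, with WT replicate 4 at 0.0114 and the others at 0.139 to 0.160. C1qc in WT had a gap of 0.913, with WT replicate 1 at 0.0856 and the others at 0 to 0.00749. For mast cell and basophil genes the gap was 0.983, since WT replicate 2 summed to 2.88 and the others to 0.561 to 0.599. For plasma cell genes it was 0.889, since WT replicate 3 summed to 46.0 and the others to 7.17 to 11.5. Jchain alone gave 31.8 of the 46.0. Of the 8 plasma cell genes in the table, 3 were highest in WT replicate 3 and 3 were at 0 there. For reticular stroma genes it was 0.914, since WT replicate 4 summed to 230.3 and the others to 93.7 to 105.4. The library marked for plasma cell genes is the one without Tyrobp reads, and the library marked for reticular stroma genes is the WT library lowest in C1qb.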

How the results depend on the processing

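Of the 10 genes, 1 (Lyz2) was called. None was without the filter, with robust variances or without WT replicate 3 and Ngfr KO replicate 3 (each 0). With array weights (C1qb, Lyz2), the B-cell covariate (Cd68, Lyz2) and DESeq2 (C1qb, Cd68), 2 were called. As given above, C1qb was testable only through WT, where it is higher, so its calls in any setting are no support for a fall. Leaving out 1 library gave 0 to 1. Over all genes the 3244 calls became 5720 with array weights and 2171 with the B-cell covariate. With 1 library left out they were 1638 to 3571, the lowest without Ngfr KO replicate 2. Without WT replicate 1 or Ngfr KO replicate 1 they were 2046 and 1880. Deviations of same-numbered libraries correlated at 0.23, -0.0032 and 0.033, and those of differently numbered libraries at -0.11 to 0.061. These few correlations do not settle whether replicate numbers pair the libraries. With the replicate block, in which WT replicate 4 has no partner, 2 of the 10 genes were called (C1qb, Lyz2) and 3231 genes in all, and the log2 change of Ctss was 0.044. The sign of Ctss also turned with median ratio scaling (0.057), array weights (0.026), edgeR (0.069), DESeq2 (0.066) and without both libraries (0.081), and leaving out 1 library gave -0.10 to 0.092. Tyrobp turned to -0.76 without both libraries and ranged from -0.12 to 1.53 with 1 left out; Csf1r ranged from -0.72 to 0.0047 and Timd4 from -0.061 to 0.53. Csf2rb turned to -0.047 with quantile normalization, -0.040 with array weights, -0.13 without both and -0.061 to 0.15 with 1 left out. Fcer1g turned to -0.24 without both, and Ccr2 to -0.58 with array weights. For Lyz2, Tyrobp and Fcer1g the libraries left out together are the lowest WT and the highest Ngfr KO library. A lower change of these genes without both was therefore fixed in advance. The cause of these shifts was not tested. Depth limits C1qa, C1qb, C1qc and Adgre1 most.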
